A study of Mus musculus with 54 samples.

Results

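The genes described here are Trp53, which encodes the tumour suppressor p53, and 9 genes of its regulatory circuit: the p53 inhibitors Mdm2 and Mdm4 and the p53 target genes Ccng1, Zmat3, Sesn1, Sesn2, Bbc3, Pmaip1, and Bax. They were chosen by name for their place in the p53 pathway, by matching NCBI gene identifiers to mouse symbols, and all 10 were listed in each of the 27 deposited tables, which together list 19653 genes. RNA was sequenced from 6 lines of H2K mouse myogenic progenitors, which are conditionally immortalized muscle precursor cells, at days 0, 1, and 2 of differentiation (0, 24, and 48 h). The 54 samples form 18 groups with 3 labelled replicates in each. Wildtype progenitors carry an intact Emd gene, and EMD-/y progenitors come from mice without it. The other 4 lines are EMD-/y progenitors transduced with a lentivirus for wildtype emerin (+EMD) or for emerin with the S54F, Δ95–99, or Q133H mutation, which cause Emery-Dreifuss muscular dystrophy. Emerin is a protein of the inner nuclear membrane. The transduced lines were selected and kept in puromycin, at doses that differed between lines in the study's methods, so that an emerin form cannot be told apart from its transduced line, and no vector-only line was analysed here. Each genotype was represented by 1 line, and the labels describe 2 biological replicates with 3 technical replicates of each, so the 3 labelled replicates of a group may be technical.

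p53 is a transcription factor that is held low by constant degradation. Mdm2 is the ubiquitin ligase that marks p53 for degradation, and Mdm4, its relative, blocks the activating part of p53. Stress signals free p53 from both, and p53 then switches on genes for cell cycle arrest, repair, and apoptosis, among them Mdm2 itself, which closes a feedback loop. Because p53 is controlled mainly as a protein, the level of its own mRNA says little about its activity, and the mRNA of its targets is the usual readout. H2K progenitors are known to carry a temperature-sensitive SV40 large T antigen, a protein that binds p53, under an interferon-inducible promoter. This is background on the cell system; large T was not measured here.

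p53 binds DNA through pairs of a 10-letter half-site. Start regions that hold it are shown because most of these genes were higher together at day 1. RefSeq start windows (GRCm38.p6, 250 bases before to 50 bases after a transcript's first base) were found for 8 of the 10 genes, with 12 windows in all, since Mdm4, Bbc3, and Sesn1 have several starts. Each window was searched on both strands for the p53 half-site consensus with no letter off. It was found in 5 windows, those of Mdm2, Ccng1, Bax, 1 of 2 Sesn1 starts, and Trp53. Of all 32851 mouse windows, 8.36% held it. The 10 genes were chosen for their place in the p53 pathway, so their share set against all windows is no independent finding. The part of the half-site in the day 1 values was not tested. In the following lines capitals mark the half-site and the rest is in lower case, 5′ to 3′ along the gene.
Mdm2 (chr10:117710709-117711008, - strand): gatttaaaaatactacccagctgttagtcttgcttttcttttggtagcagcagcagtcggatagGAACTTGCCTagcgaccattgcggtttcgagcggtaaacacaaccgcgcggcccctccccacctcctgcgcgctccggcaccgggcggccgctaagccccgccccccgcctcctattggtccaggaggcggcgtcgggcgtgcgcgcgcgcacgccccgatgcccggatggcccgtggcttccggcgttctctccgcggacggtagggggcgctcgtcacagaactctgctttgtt
Ccng1 (chr11:40755237-40755536, - strand): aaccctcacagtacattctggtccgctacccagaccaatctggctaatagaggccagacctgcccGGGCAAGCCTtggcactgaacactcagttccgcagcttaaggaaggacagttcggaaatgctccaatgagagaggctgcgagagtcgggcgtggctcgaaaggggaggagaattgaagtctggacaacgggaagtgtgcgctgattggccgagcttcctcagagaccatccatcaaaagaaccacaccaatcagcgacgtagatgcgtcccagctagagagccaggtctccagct
Bax (chr7:45466849-45467148, - strand): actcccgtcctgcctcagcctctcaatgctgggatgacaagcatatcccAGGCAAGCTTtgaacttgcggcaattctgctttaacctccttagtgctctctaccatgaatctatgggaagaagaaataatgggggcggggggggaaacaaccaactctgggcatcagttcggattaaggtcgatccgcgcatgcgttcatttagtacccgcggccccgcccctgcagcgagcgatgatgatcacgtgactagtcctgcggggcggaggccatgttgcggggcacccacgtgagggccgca
Sesn1 (chr10:41887189-41887488, + strand): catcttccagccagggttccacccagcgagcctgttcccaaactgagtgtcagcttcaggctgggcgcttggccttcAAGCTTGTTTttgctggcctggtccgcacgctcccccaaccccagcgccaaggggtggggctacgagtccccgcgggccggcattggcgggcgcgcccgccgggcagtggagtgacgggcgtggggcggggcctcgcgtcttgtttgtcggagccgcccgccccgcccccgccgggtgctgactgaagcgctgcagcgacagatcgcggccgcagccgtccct
Trp53 (chr11:69580109-69580408, + strand): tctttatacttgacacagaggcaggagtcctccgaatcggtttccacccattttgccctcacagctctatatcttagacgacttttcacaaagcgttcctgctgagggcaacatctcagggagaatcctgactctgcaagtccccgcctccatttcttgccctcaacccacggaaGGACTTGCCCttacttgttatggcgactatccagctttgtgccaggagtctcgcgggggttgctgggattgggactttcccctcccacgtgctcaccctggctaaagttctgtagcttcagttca

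In GRCm38 (mm10), the build named in the submitters' processing notes, Trp53 lies at chr11:69580348-69591873, Mdm2 at chr10:117688875-117710758, Mdm4 at chr1:132986105-133030587, Ccng1 at chr11:40748552-40755309, and Zmat3 at chr3:32334792-32365665. Sesn1 lies at chr10:41810574-41908436, Sesn2 at chr4:132492804-132510456, Bbc3 at chr7:16308398-16318334, and Bax at chr7:45461695-45466903. The windows printed cover the end of the upstream flank and the first bases of the first exon. The half-site began 186 bases before the start of Mdm2, 185 before that of Ccng1, 201 before that of Bax, 173 before that of the Sesn1 start shown, and 75 before that of Trp53. Neither Mdm4 window, the Sesn2 window, nor any of the 3 Bbc3 windows held it. No member window held a pair of half-sites, defined as 2 half-sites at most 13 bases apart with at most 1 letter off in all and none off in their inner letters. Such a pair was found in 0.417% of all windows. Among 78 windows of the other p53 pathway genes, 4 held a pair, those of Pml, Rps27l, Gtse1, and Cdkn1a, which were named after the result of the search was seen. A Cdkn1a pair with no letter off lay from 73 to 42 bases before the start. Another, with 1 letter off and no bases between its half-sites, lay from 51 to 32 bases before the start. The pair with no letter off is shown because Cdkn1a (p21) is the best-known p53 target gene, and only its letters are in capitals.
Cdkn1a (chr17:29090891-29090952, + strand): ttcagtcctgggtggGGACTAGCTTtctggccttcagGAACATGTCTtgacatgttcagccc
A match is a stretch of letters and was not tested as a binding site, and a site outside these windows would not be seen.

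The values are the authors' means of normalized counts, 1 for each group, so a group has 1 value with no spread. No test, standard deviation, or interval can be given, and the depth of each sample is unknown. A gene is called 2-fold higher or lower here when log2 of the ratio of the means, after adding 1 to each, is at least 1 in size, and "higher" and "lower" describe these means without a test against replicates. Tables were normalized separately. The same group and gene differed by at most 1.15-fold between tables, and a change between days read by different routes through the tables differed by at most 0.076 on the log2 scale. These 2 values measure how far the tables differ and not the replicate error. Some other genes differed more: the Q133H day 0 mean of Perp was 63.7 in 1 table and 79.5 in another. Means of the 10 genes ranged from 99.96 to 49774, far from the lowest counts. No other gene's transcript matched a member over 200 or more bases at 97% or more identity, and Bax shared 192 of its 1576 exonic bases with Gm45808 on the same strand.

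The labels and the cell type were checked in the same tables. Emd means were at most 3.52 in the tables of the 5 lines against 987 to 1962 in wildtype, in the transduced lines too. The Emd transcript thus checks the deletion and does not show the transgene. Low transgene RNA cannot be told apart here from transgene RNA that is not counted as Emd. In proliferating cells the paper reported emerin protein in the transduced lines by western blot. The myogenic genes Myod1, Myog, and Des had means of at least 2928 in all groups. Myf5 was lower, at 125 to 241 in wildtype and 226 to 1514 in the lines set against it, and above wildtype in all 15 comparisons. Cdh15 and Itga7, also on the myogenic list, are given only within sums. Pax7, which marks muscle stem cells, was as low as 3.01 in Q133H and as high as 2224 elsewhere. Markers of other cell types were low throughout: 4 fibroblast genes summed to between 19.5 and 99.2, 3 endothelial genes to between 10.7 and 36.0, 3 leukocyte genes to between 9.22 and 120, and 3 adipocyte genes to at most 11.8. Of these, Adipoq, Plin1, Lum, Adgre1, and Ptprc were at 2.04 or lower or not listed, and Cd68 (up to 120), Pdgfra (up to 74.9), and Dcn (up to 54.6) made up most of the sums. The RNA is from bulk cells, so fewer cells of a type and less RNA per cell cannot be told apart.

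Per kilobase of transcript, Ccng1 had the highest level in wildtype at day 1, with 12872 normalized counts per kilobase, followed by Bax with 5180, Mdm2 with 4038, Pmaip1 with 2468, and Trp53 with 1961. Sesn2 (614), Zmat3 (431), Sesn1 (196), Mdm4 (189), and Bbc3 (187) were lower. At day 0 the order was headed by Bax (2276), Ccng1 (1871), and Trp53 (1778), and Mdm2 was at 847 and Pmaip1 at 352 per kilobase. At day 1 Sesn1, Mdm4, and Bbc3 lay within 1.15-fold of each other.

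The first comparison is between day 0 and day 1, when progenitors are switched from growth medium to differentiation medium. In the study's methods the switch also took out γ-interferon, raised the temperature, and lowered the carbon dioxide level. Mdm2 and the 7 target genes were higher at day 1 than at day 0 in all 6 lines, while Trp53 and Mdm4 were within 0.54 of 0 on the log2 scale. Of 60 values (10 genes in 6 lines), 42 were 2-fold higher and none was 2-fold lower. In wildtype 8 of the 10 genes were 2-fold higher, where 12.5% of all genes were. EMD-/y had 8 (12% of all genes), +EMD had 7 (10.4%), S54F had 7 (9.42%), Δ95–99 had 7 (7.32%), and Q133H had 5 (5.77%). The median log2 ratio of the 10 genes was 1.67 (+EMD), 1.58 (wildtype), 1.54 (Δ95–99), 1.44 (EMD-/y), 1.34 (S54F), and 1.03 (Q133H), while the median of all genes lay between -0.02 and 0.02 in every table.

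**Figure D1:**
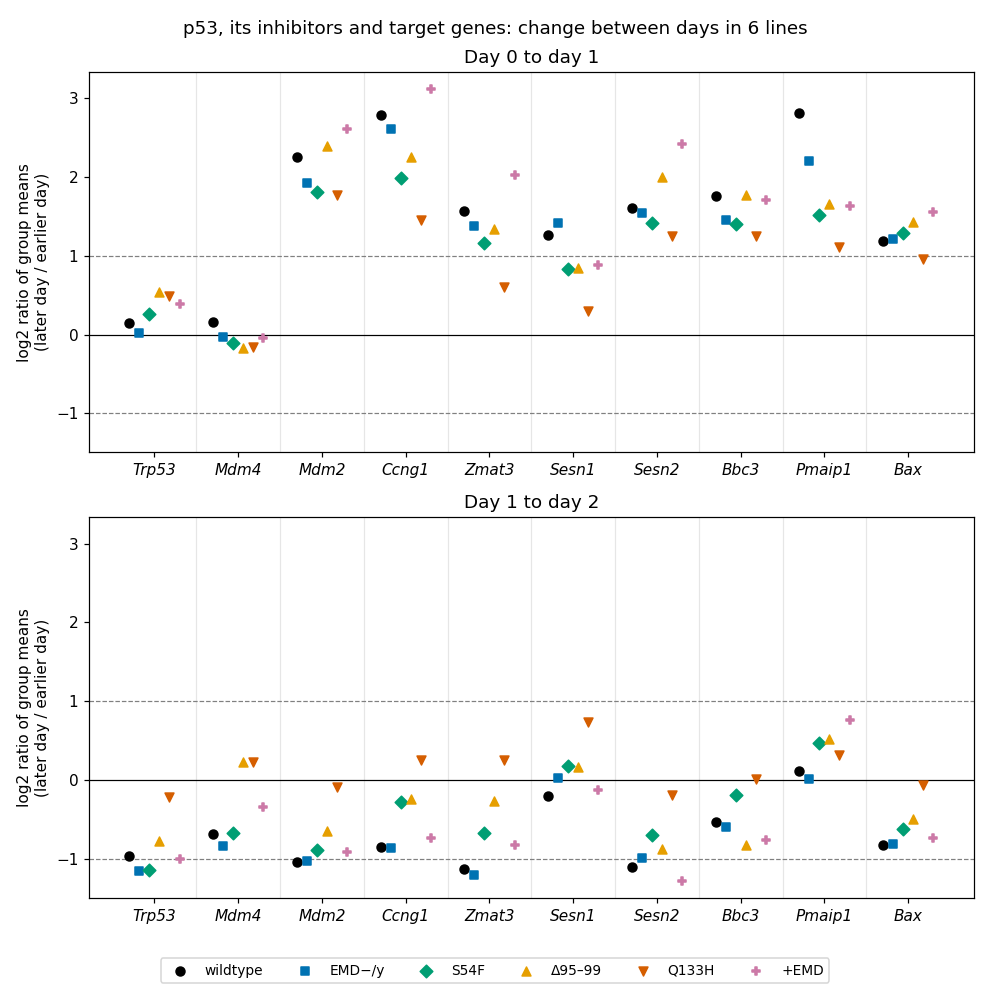
Log2 ratio of the group means, later over earlier day, for the 10 genes (horizontal axis) in 6 lines (colours and symbols), with day 0 to day 1 above and day 1 to day 2 below. Each point is 1 ratio of 2 pooled means, with no error bar. Dashed lines mark a 2-fold difference. Above, Mdm2, Ccng1, Bbc3, Pmaip1, and Sesn2 lie over the upper line in every line and Trp53 and Mdm4 near 0. Below, Q133H is the highest of the 6 lines for 8 of the 10 genes, all but Mdm4 and Pmaip1.

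Trp53 itself differed little between these days. Its mean normalized count went from 3190 to 3519 in wildtype, 3870 to 3918 in EMD-/y, 3982 to 4763 in S54F, 4183 to 6065 in Δ95–99, 4868 to 6825 in Q133H, and 4513 to 5896 in +EMD. The log2 ratios, 0.14, 0.02, 0.26, 0.54, 0.49, and 0.39 in that order, were all above 0 and under the 2-fold threshold. Mdm4 means at day 1 ranged from 1250 to 1695 and the log2 ratios from -0.17 in Δ95–99 to 0.15 in wildtype.

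Mdm2, the feedback inhibitor, was 2-fold higher in 6 of 6 lines. Its mean went from 2626 to 12525 in wildtype, 2680 to 10143 in EMD-/y, 3208 to 11219 in S54F, 3316 to 17403 in Δ95–99, 5720 to 19485 in Q133H, and 1885 to 11536 in +EMD. All 6 day 1 means lay above all 6 day 0 means. The log2 ratios were 2.25, 1.92, 1.81, 2.39, 1.77, and 2.61.

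Ccng1 encodes cyclin G1, a p53 target that recruits a phosphatase to Mdm2. Its mean went from 6550 to 45065 in wildtype, 6205 to 37896 in EMD-/y, 9079 to 36017 in S54F, 8382 to 40012 in Δ95–99, 15238 to 41587 in Q133H, and 3919 to 33964 in +EMD. Day 1 means ranged from 33964 to 45065 and day 0 means from 3919 to 15238, and the log2 ratio was 3.12 in +EMD, which was lowest at day 0, and 1.45 in Q133H, which was highest. Zmat3, an RNA-binding protein, showed the same order at the ends: 844 to 3444 in +EMD (2.03) and 3427 to 5194 in Q133H (0.60), with 1205 to 3563 in wildtype (1.56). The other 3 lines lay between 1.17 and 1.38.

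The sestrins are stress proteins that restrain the growth kinase complex mTORC1. Sesn2 went from 611 to 1855 in wildtype (1.60), 568 to 1662 in EMD-/y (1.55), 673 to 1793 in S54F (1.41), 706 to 2836 in Δ95–99 (2.00), 1285 to 3048 in Q133H (1.25), and 390 to 2094 in +EMD (2.42). It was 2-fold higher in 6 of 6 lines. Sesn1 was 2-fold higher in wildtype (234 to 565) and EMD-/y (195 to 524) and under the threshold in S54F (0.83), Δ95–99 (0.84), +EMD (0.88), and Q133H (305 to 374, 0.29).

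The apoptosis genes gave 17 of 18 values past 2-fold. Bbc3 (Puma) and Pmaip1 (Noxa) encode BH3-only proteins that disarm the Bcl2 family guardians, and Bax encodes the protein that perforates mitochondria. Pmaip1 lies at chr18:66458604-66465558 of GRCm38. Bbc3 went from 106 to 359 in wildtype, 124 to 340 in EMD-/y, 116 to 307 in S54F, 142 to 486 in Δ95–99, 169 to 406 in Q133H, and 105 to 343 in +EMD, with log2 ratios from 1.26 to 1.77. Pmaip1 went from 933 to 6551 in wildtype, 868 to 4013 in EMD-/y, 873 to 2491 in S54F, 876 to 2767 in Δ95–99, 1351 to 2907 in Q133H, and 1065 to 3292 in +EMD. Its day 0 means ranged from 868 to 1351 and its day 1 mean was highest in wildtype, with a log2 ratio of 2.81 there and 1.11 in Q133H. Bax went from 2194 to 4993 in wildtype, and its log2 ratio was 1.19 there, between 1.22 and 1.56 in 4 lines, and 0.96 in Q133H (3301 to 6414).

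The 68 other genes of the pathway were read in the same way, by role. Of the genes with a higher mean of at least 10, 24 of 67 were 2-fold higher at day 1 in wildtype and 5 were lower, where 12.5% and 10.3% of all genes were. In the other lines 21 of 67 (EMD-/y), 19 of 67 (S54F), 22 of 66 (Δ95–99), 15 of 66 (Q133H), and 23 of 67 (+EMD) were 2-fold higher, and 3 to 5 were lower. Of 18 apoptosis targets, 10 were higher in wildtype, Δ95–99, and +EMD, 9 in EMD-/y, 8 in S54F, and 7 in Q133H. Cell cycle arrest targets were 6 of 11 in wildtype and 4 of 12 in Q133H. None of the 5 DNA damage kinases was 2-fold higher in any line.

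**Figure D2:**
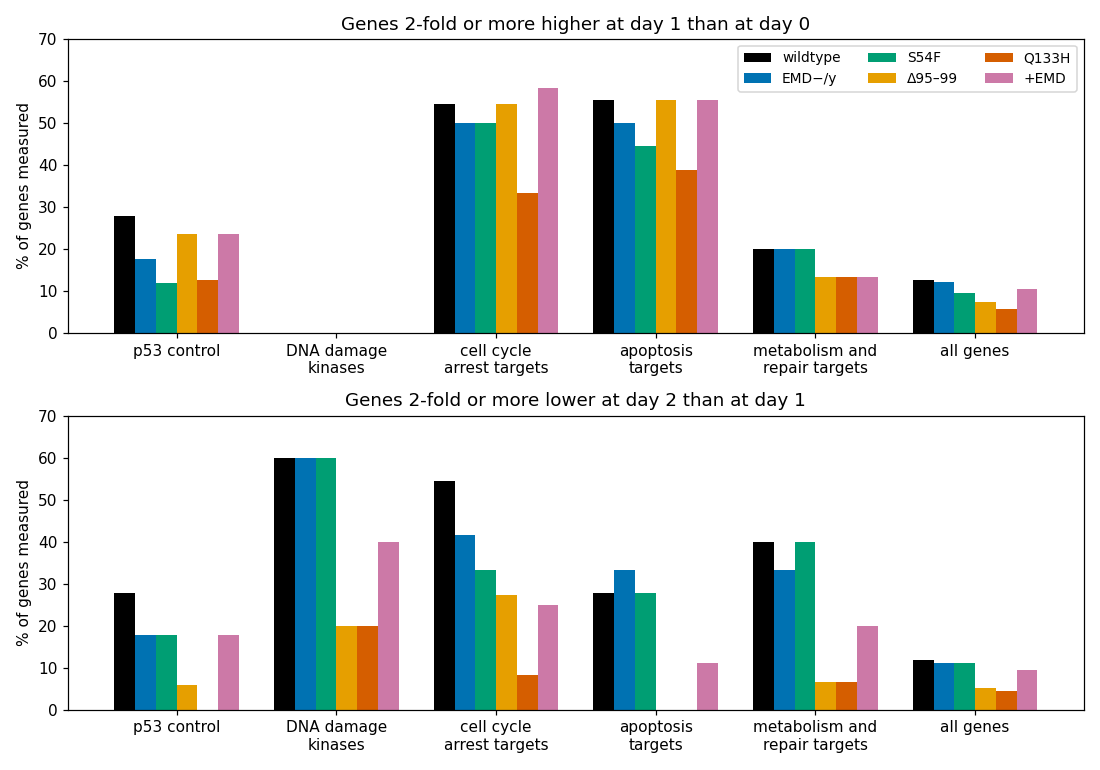
Share of the other p53 pathway genes, by role (horizontal axis), that were 2-fold or more higher at day 1 than at day 0 (above) or 2-fold or more lower at day 2 than at day 1 (below), as a percent of the genes measured, in 6 lines (colours), with all genes at the right. Bars are shares of genes within 1 comparison and have no error bar; roles hold 5 to 18 genes. In the upper part, arrest and apoptosis targets stand above all genes in every line, and in the lower part Q133H has at most 1 gene in each role.

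A set of 11 named targets, out of the 68 other pathway genes, was 2-fold higher in all 6 lines. Apart from Cdkn1a and Fas, they were named because they passed 2-fold in the same direction in at least 6 comparisons between days. The set was thus largely picked on this outcome and does not show how often p53 targets rise. The share of all genes that were 2-fold higher in all 6 lines is not given here. Cdkn1a, the Cdk inhibitor p21, went from 7624 to 42456 in wildtype, with log2 ratios from 1.05 in Q133H to 2.54 in +EMD. Trp53inp1, a p53 cofactor, went from 708 to 10989 in wildtype, with ratios from 1.69 in Q133H to 4.68 in +EMD. Btg2 (1.5 to 2.99) and the receptor genes Fas (1.40 to 2.88), Eda2r (1.33 to 3.33), and Tnfrsf10b (1.08 to 1.82) were also higher. So were the apoptosome gene Apaf1 (1.2 to 1.98), Pidd1 (1.28 to 2.51), and Ei24 (1.08 to 1.99). The last were Perp (1.8 to 3.67, from a mean of 1.98 in wildtype) and the DNA polymerase gene Polk (1.08 to 1.98). In each of these 11 genes Q133H had the lowest ratio of the 6 lines, and its day 0 mean was the highest of the 6.

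The feedback phosphatase gene Ppm1d was 2-fold higher in 4 lines (0.69 to 1.39), Gadd45a in 2 (-0.17 to 1.77), and Cd82 in 5 (0.14 in Q133H to 1.97). Usp7, which encodes the deubiquitinase of Mdm2 and p53, was lower in all 6 (-0.76 to -0.48) and not past 2-fold. Genes lower at day 1 included the survival gene Bcl2, 2-fold in 5 lines (-1.83 to -0.97), and Thbs1 in 4 (-1.59 to -0.73). The summed mean of 8 proliferation genes was also lower at day 1, by 1.12 on the log2 scale in wildtype and 0.12 in Q133H, and that of 7 myogenic genes was higher by 1.19 in wildtype and lower by 0.41 in Q133H. The part of either in the changes of the p53 target genes was not tested. The change of medium, which removes interferon, cannot be told apart from differentiation. Nor can the rise in temperature and the fall in carbon dioxide that go with it in the study's methods. The temperature of the growth phase differs between the labels and those methods.

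The second comparison is between day 1 and day 2. Most of the 10 genes were lower at day 2, except Pmaip1 and Sesn1, and in Q133H 4 of 10 were lower. Of 60 values, 9 were 2-fold lower and none was 2-fold higher. In wildtype 3 of 10 were 2-fold lower, Mdm2, Zmat3, and Sesn2, where 11.9% of all genes were. EMD-/y had 3 (11% of all genes), +EMD had 2 (9.53%), S54F had 1 (11.1%), and neither Δ95–99 (5.24%) nor Q133H (4.44%) had any. The median of the 10 genes was -0.85 (EMD-/y), -0.84 (wildtype), -0.75 (+EMD), -0.64 (S54F), -0.38 (Δ95–99), and 0.12 (Q133H).

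Trp53 was lower at day 2 in all 6 lines. Its mean went from 3271 to 1669 in wildtype, 3518 to 1575 in EMD-/y, 4421 to 2003 in S54F, 5907 to 3444 in Δ95–99, 6862 to 5897 in Q133H, and 5568 to 2783 in +EMD. The log2 ratios were -0.97, -1.16, -1.14, -0.78, -0.22, and -1.0, so 3 lines passed the threshold and wildtype lay just under it. The value of +EMD lies at the threshold itself and passed it by less than the scaling error.

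Mdm2 went from 11635 to 5648 in wildtype (-1.04), 9099 to 4472 in EMD-/y (-1.02), 10422 to 5606 in S54F (-0.89), 16954 to 10845 in Δ95–99 (-0.64), 19614 to 18426 in Q133H (-0.09), and 10902 to 5787 in +EMD (-0.91). The Q133H mean at day 2 was above the day 1 means of the other 5 lines, though it exceeded that of Δ95–99 by less than the 1.15-fold scaling difference. Ccng1 went from 41860 to 23252 in wildtype (-0.85) and from 41901 to 49774 in Q133H (0.25), with -0.87 in EMD-/y, -0.74 in +EMD, -0.28 in S54F, and -0.24 in Δ95–99. Zmat3 had -1.13 in wildtype, -1.21 in EMD-/y, and 0.25 in Q133H (5232 to 6240).

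Sesn2 was lower in all 6 lines, from -1.28 in +EMD (1980 to 816) to -0.18 in Q133H (3066 to 2697). Sesn1 lay between -0.21 in wildtype and 0.18 in S54F in 5 lines, and in Q133H it was 0.74 (380 to 633). Bax was -0.83 in wildtype and -0.06 in Q133H, and Bbc3 was -0.53 and 0.01. Pmaip1 alone of the 10 genes was not lower in any line, with 6106 to 6619 in wildtype (0.12) and ratios up to 0.77 in +EMD (3118 to 5306). Mdm4 was lower in wildtype (1388 to 866, -0.68), EMD-/y (-0.84), S54F (-0.68), and +EMD (-0.34) and higher in Δ95–99 (0.23) and Q133H (0.22).

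Of the other pathway genes, 25 of 67 were 2-fold lower at day 2 in wildtype and 1 was higher. EMD-/y had 22 of 67 lower (11% of all genes), S54F 21 of 67 (11.1%), +EMD 13 of 67 (9.53%), Δ95–99 6 of 66 (5.24%), and Q133H 3 of 66 (4.44%), the last near the share of all genes. Pidd1 had log2 ratios of -2.30 in wildtype and -0.04 in Q133H, Trp53inp1 -1.75 and 0.57, Polk -1.41 and -0.06, Apaf1 -1.22 and 0.07, Tnfrsf10b -1.2 and 0.12, and Ppm1d -1.05 and -0.20. Targets did not move as 1 block: Cdkn1a was higher at day 2 in all 6 lines by 0.53 to 0.89, Gadd45a by 0.68 to 1.66, and Eda2r lay between -0.03 and 0.68. Chek1 (-2.71 to -1.27), the checkpoint kinase, Cdc25c (-3.99 to -1.94), a mitotic phosphatase that p53 represses, and Gls2 (-2.20 to -1.19) were 2-fold lower in 6 of 6 lines. These genes, too, were named for passing 2-fold in the same direction in at least 6 comparisons between days. All 8 proliferation genes were also 2-fold lower at day 2 in every line, with a summed log2 ratio from -4.70 in wildtype to -1.76 in Δ95–99, and -2.23 in Q133H. Their part in the members' changes was not tested.

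Setting each line's change against the wildtype change showed where lines differed. A difference of at least 1 on the log2 scale was seen for 7 of 100 values, where 3.44% to 20.8% of all genes in a comparison differed that much. From day 0 to day 1 it was Pmaip1 in S54F (-1.3), Δ95–99 (-1.15), Q133H (-1.70), and +EMD (-1.18), and Ccng1 in Q133H (-1.33). In that step the share of all genes that differed by at least 1 was 20.8% (Q133H), 15.5% (Δ95–99), 12.5% (+EMD), and 10.3% (S54F), so the 1 or 2 members a line were near or under the general share. From day 1 to day 2 it was Zmat3 (1.39) and Ccng1 (1.10) in Q133H. Q133H was above wildtype for 10 of 10 genes from day 1 to day 2, with a median difference of 0.91, where the median over all genes was 0.07 and 12.8% of genes differed by at least 1 upward. Over the same step the median difference of the 10 genes was 0.39 for Δ95–99, 0.35 for S54F, 0.10 for +EMD, and -0.05 for EMD-/y. EMD-/y differed from wildtype by at most 0.60 in size for any member in either step, for Pmaip1.

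**Figure D3:**
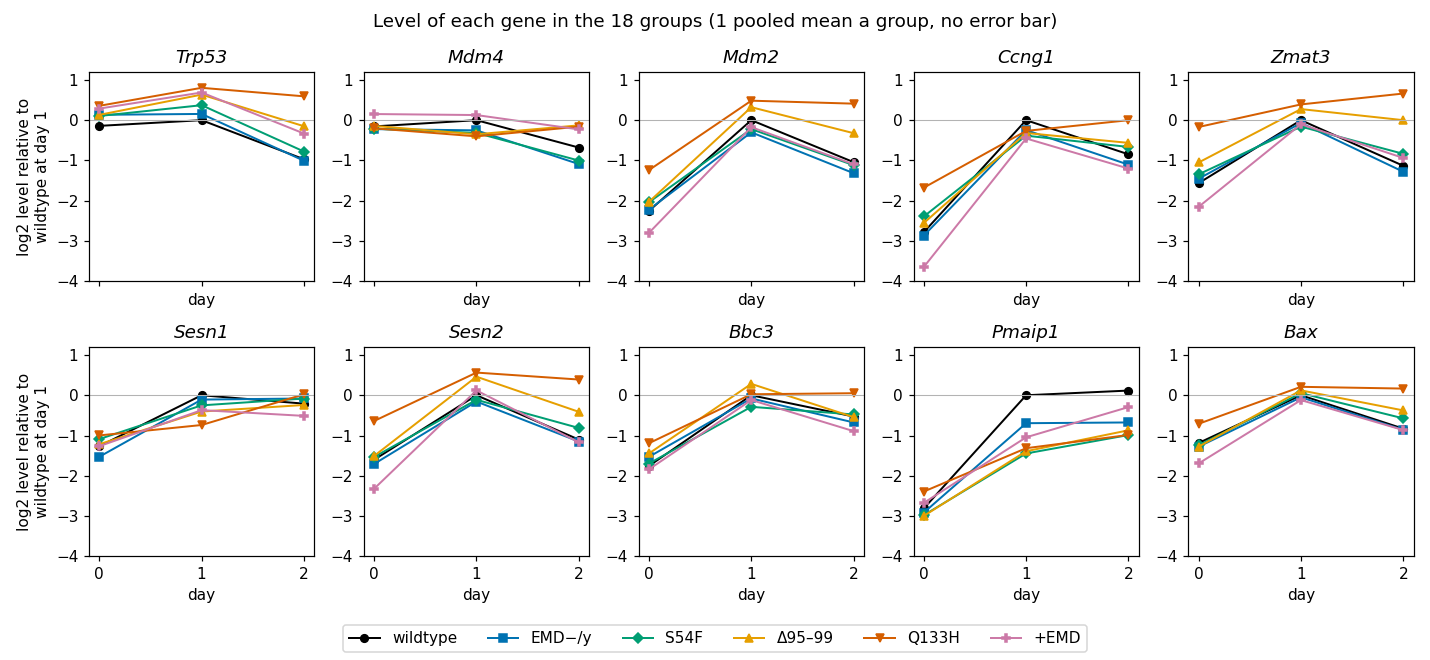
Level of each gene (1 panel a gene) on the log2 scale relative to wildtype at day 1, against day of differentiation, in 6 lines (colours and symbols). Wildtype days come from the wildtype tables between days and each line from its ratio to wildtype on that day; each point is 1 pooled value with no error bar. The lines of Mdm2, Ccng1, Zmat3, Sesn2, Bbc3, and Bax go up from day 0 to day 1 in all 6 lines and down to day 2 in 5 of them, Q133H stays near or above its day 1 level, Pmaip1 stays up, and Mdm4 stays within 1.24 over all groups.

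The third comparison is between each line and wildtype on the same day, which asks how loss or mutation of emerin goes with the level of each gene. All lines of a day share the same wildtype libraries, so their ratios are not independent of each other. Of 150 values, 14 were past 2-fold, where 16.1% of all genes were over the same 15 tables, so the share of the members was under that of all genes. Of the 14, 9 were in Q133H, and 4 of the other 5 were for Pmaip1.

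At day 0, before differentiation, Q133H had 3 of 10 genes past 2-fold, where 14.8% of all genes were. Mdm2 was 5467 in Q133H against 2707 in wildtype (1.01), Ccng1 14565 against 6768 (1.11), and Zmat3 3282 against 1248 (1.39), and Sesn2 was just under the threshold with 1230 against 631 (0.96). No member was past 2-fold in EMD-/y (8.77% of all genes), S54F (11.9%), Δ95–99 (12.4%), or +EMD (17%). The +EMD line lay on the other side of wildtype for the same genes, with Ccng1 at 3639 against 6621 (-0.86), Sesn2 at 375 against 618 (-0.72), Zmat3 at 812 against 1221 (-0.59), Mdm2 at 1819 against 2654 (-0.55), and Bax at 1567 against 2229 (-0.51). Trp53 was above wildtype in all 5 lines, by 0.25 to 0.50.

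At day 1 a single member was past 2-fold, Pmaip1, and it was lower. It was 2482 in S54F against 6763 in wildtype (-1.45), 2645 in Δ95–99 against 6935 (-1.39), 2788 in Q133H against 6938 (-1.32), and 3273 in +EMD against 6751 (-1.04). In EMD-/y it was 3972 against 6428 (-0.69). The 4 lines with 1 member past 2-fold had 12% (S54F), 20.9% (Δ95–99), 24.1% (Q133H), and 19.6% (+EMD) of all genes past it, and EMD-/y had none of the 10 and 7.42% of all genes, so the share of members was near or under that of all genes. Trp53 was again above wildtype in all 5 lines, by 0.15 in EMD-/y and up to 0.80 in Q133H (6500 against 3723). Ccng1 was below wildtype in all 5, with log2 ratios from -0.45 to -0.25.

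At day 2 Q133H had 5 of 10 members past 2-fold, where 33.5% of all genes were. Zmat3 was 5490 against 1582 in wildtype (1.79), Trp53 5183 against 1753 (1.56), Sesn2 2370 against 842 (1.49), and Mdm2 16197 against 5916 (1.45), and Pmaip1 was lower with 3225 against 6928 (-1.10). Bax was 5450 against 2732, a log2 ratio of 1.00 that lies just under the threshold, and Ccng1 was 43783 against 24333 (0.85). Δ95–99 had 1 member past 2-fold (22% of all genes), Zmat3 with 3382 against 1541 (1.13), and its Trp53 (0.82), Mdm2 (0.72), and Sesn2 (0.69) were higher without passing it. S54F had 1 (10.6%), Pmaip1 with 2903 against 6245 (-1.10), and EMD-/y (7.63%) and +EMD (18.4%) had none.

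**Figure D4:**
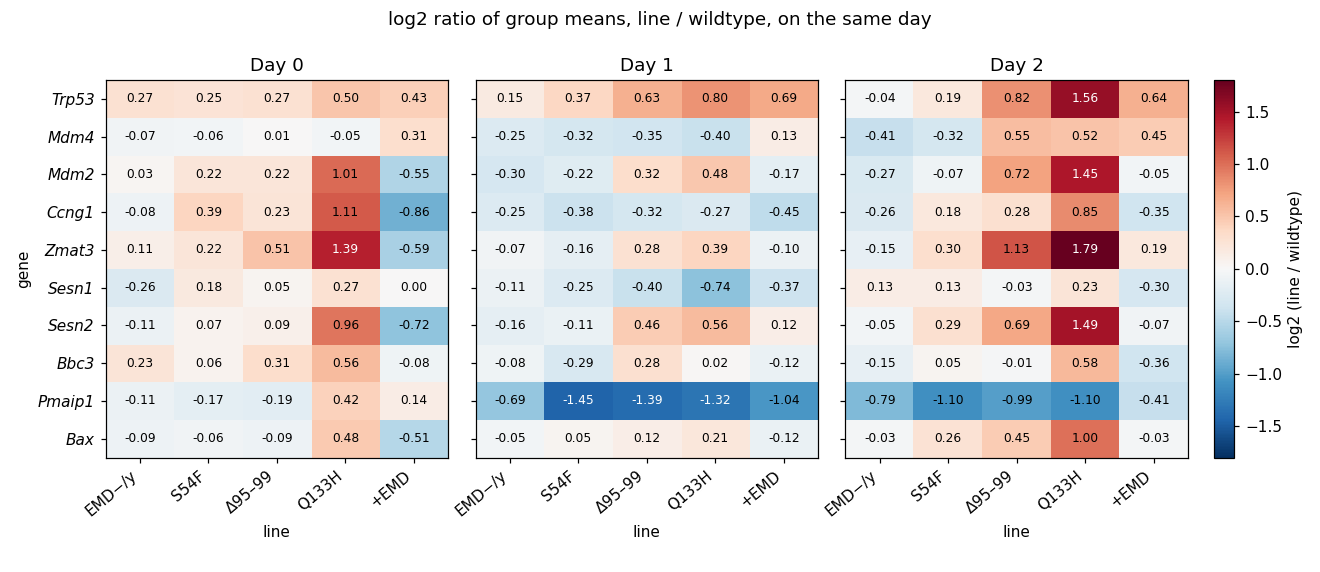
Log2 ratio of the group means, line over wildtype on the same day, for 10 genes (rows) and 5 lines (columns) at days 0, 1, and 2 (panels), with the value printed in each cell, red for higher and blue for lower in the line. The column of Q133H at day 0 and day 2 and the row of Pmaip1 at day 1 and day 2 hold 13 of the 14 values past 2-fold.

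Among the other pathway genes, 2 to 12 of 65 to 66 were past 2-fold at day 0 and 2 to 13 of 67 to 68 at day 1. Of all genes, 8.77% to 17% were past it at day 0 and 7.42% to 24.1% at day 1, by line. Q133H had 12 of 66 and 13 of 68, where 14.8% and 24.1% of all genes were past 2-fold, so these counts were near or under the general share. At day 2, 31 of 67 were 2-fold higher in Q133H and 4 were lower, where 18% and 15.5% of all genes were, with a median of 0.86 over the list. Of these, 10 of 18 apoptosis targets, 7 of 12 arrest targets, 8 of 15 metabolism and repair targets, and 3 of 5 DNA damage kinases were higher. The DNA damage kinases were also 2-fold higher for 3 of 5 in Δ95–99 and 2 of 5 in +EMD, with 0 in S54F and EMD-/y. Δ95–99 had 15 of 66 higher and 1 lower, where 13.1% and 8.91% of all genes were. +EMD had 12 of 67 and 2 (10.7% and 7.68% of all genes). S54F had 2 of 65 and 2 (5.87% and 4.73%), and EMD-/y had 2 of 65 and 1 (4.77% and 2.86%). In Q133H at day 2 Perp had a mean of 891 against 10.9 in wildtype (6.23), Trp53i11 796 against 81.2 (3.28), Pidd1 1443 against 263 (2.45), Trp53inp1 13468 against 3188 (2.08), Apaf1 3326 against 1050 (1.66), Polk 2407 against 847 (1.51), Tnfrsf10b 2733 against 1113 (1.3), and Ppm1d 874 against 425 (1.04).

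Other targets in Q133H at day 2 did not follow. Cdkn1a was 41893 against 72333 in wildtype (-0.79), Gadd45a 696 against 1929 (-1.47), Cd82 2940 against 7192 (-1.29), and Eda2r was at -0.20. Trp63, which encodes a relative of p53, was 2.35 in Q133H against 265 in wildtype, and it was 2-fold lower in 8 of the 15 comparisons of a line with wildtype and 2-fold higher in 1, +EMD at day 2 (1.22). Igfbp3, which encodes a secreted binder of insulin-like growth factors, was 2-fold higher in 13 of 15, by 0.43 to 3.55. Trp63, Igfbp3, and, above, Perp and Trp53i11 were named because they passed 2-fold in 1 direction in at least 8 of these 15 comparisons. The counts of Trp63 and Igfbp3 thus restate that rule, and the share of all genes that meet it is not given here. Fas was 2-fold lower in 6 of 15, among them +EMD at day 0 (44.9 against 175) and S54F at day 1 (373 against 888). Usp7 was past 2-fold in none.

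Markers also differed from wildtype at day 2. The 8 proliferation genes were 2-fold higher than in wildtype for 8 of 8 in Q133H, Δ95–99, and +EMD and 7 of 8 in EMD-/y and S54F, with summed means of 6426 against 759 in Q133H, 10448 against 719 in Δ95–99, 10345 against 671 in +EMD, 1925 against 660 in S54F, and 1790 against 644 in EMD-/y. The members' median was 0.92 in Q133H, 0.50 in Δ95–99, 0.15 in S54F, -0.06 in +EMD, and -0.15 in EMD-/y. The 7 myogenic genes summed to 72220 in Q133H against 170598 in wildtype, with 5 of 7 2-fold lower and 1 of 7 2-fold higher. In +EMD they summed to 144998 against 157864, with none of 7 2-fold lower and 2 of 7 2-fold higher. The log2 ratio of the myogenic sums was -1.24 in Q133H, -0.40 in Δ95–99, -0.12 in +EMD, -0.12 in S54F, and -0.07 in EMD-/y. Low-level markers of other cell types were also higher in Q133H at day 2, with Cd68 the only leukocyte gene listed at 106 against 24.6, 4 fibroblast genes summing to 89.4 against 56.0, 3 endothelial genes to 25.2 against 16.5, and the adipocyte gene Fabp4 at 10.3 against 0.443. The part of these genes in the members' differences was not tested.

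Likeness over the 18 groups was read from the levels plotted by day, over 11030 genes that passed the level filter of 10. The 18 points share the wildtype values and are no independent samples, so r is a description. Levels of Mdm2 were most like those of Dennd2c (r = 0.987), Ei24 (0.982), and Bax (0.982), and levels of Ccng1 were most like those of Aldh4a1 (0.988), Btg2 (0.987), and Dcxr (0.977). Of the other members, Sesn2 (0.980), Bbc3 (0.960), Ccng1 (0.951), and Zmat3 (0.945) were close to Mdm2, and Sesn1 (0.745) and Pmaip1 (0.667) less so.

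Trp53 levels were most like those of Mthfd1 (0.985), Utp20 (0.981), and Wrap53 (0.980), the last a gene that lies next to Trp53 on chromosome 11. The r of Trp53 with Mdm2 was 0.355, with Ccng1 0.084, and with Pmaip1 -0.34. Over all groups Trp53 ranged over 1.81 on the log2 scale, from EMD-/y at day 2 to Q133H at day 1, and Mdm4 over 1.24. Ccng1 ranged over 3.65, Mdm2 over 3.28, Pmaip1 over 3.11, Sesn2 over 2.89, Zmat3 over 2.81, Bbc3 over 2.12, Bax over 1.90, and Sesn1 over 1.55. The lowest group was +EMD at day 0 for Mdm2, Ccng1, Zmat3, Sesn2, Bbc3, and Bax.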

How the data were processed

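RNA was sequenced from 54 samples (18 groups of 3 labelled replicates). According to the submitters' processing notes the reads were aligned to mm10 with HISAT2 and compared with DESeq2, and no versions are given in the sources used here. The deposited tables, 15 of a line against wildtype and 12 between days of 1 line, hold for each gene the authors' mean signal of both groups, in normalized counts pooled over replicates. The tables also hold the authors' own fold changes, p-values, adjusted p-values, and calls, which were not used. There were 0 columns of values for single samples, so the depth of each sample, the spread between replicates, and any test were out of reach. Tables listed 17215 to 17876 genes.

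For each table log2((test mean + 1)/(reference mean + 1)) was computed, and a gene was called at 2-fold. Shares of all genes were taken over genes whose higher mean was at least 10 (13118 to 13593 a table). Levels over the 18 groups were chained through the wildtype tables. Of these steps only the 2-fold call was tested on simulated data, with planted changes larger than 2-fold. Likeness was the Pearson correlation of chained levels. RefSeq start windows (GRCm38.p6) were searched for the p53 half-site on both strands, and copies were sought at 97% identity over 200 bases. Python 3.11.15, numpy 2.4.6, and pandas 2.3.3 were used. The members and gene lists were chosen with earlier results of these data known. Besides the members, genes were named that passed 2-fold in 1 direction in at least 8 of 15 line tables or 6 of 12 tables between days, plus Cdkn1a, Gadd45a, Fas, Ppm1d, Usp7, cell type markers, and the 3 genes most like Trp53, Mdm2, and Ccng1. Alternatives were another pseudocount, threshold, filter, or centring, another route through the tables, and leaving out Q133H.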

Additional observations from a re-analysis of the deposited data

How the results depend on the processing

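The count of the 10 genes past 2-fold between lines and wildtype, 14 of 150, was 31 at a 1.5-fold threshold and 1 at 3-fold, where 29.3% and 8.64% of all genes were called. Between days the count of 51 of 120 (17.4% of all genes) became 81 at 1.5-fold (35.0%) and 22 at 3-fold (7.52%). For the other p53 pathway genes 142 of 997 between lines and wildtype became 300 at 1.5-fold and 58 at 3-fold, and 249 of 800 between days became 416 and 119. Other pseudocounts, centring, and filters kept each count within 1.5 times. Leaving out Q133H, an alternative chosen after seeing the data, gave 5 of 120 for the members against wildtype (14.1% of all genes), 82 of 796 for the other pathway genes, and 3 of 80 in place of 7 of 100 for the differences between a line's change and that of wildtype, and 46 of 100 between days (18.6% of all genes). Leaving predicted genes out of the background, also chosen after seeing the data, gave 14.5% in place of 16.1% of all genes between lines and wildtype. Of the 270 single values, none reversed, and Trp53 in +EMD from day 1 to day 2 was under the threshold with a pseudocount of 5 or with centring. No paired analysis was possible because the tables hold pooled means and no result comes from a test, and replicates could not be left out in turn for the same reason.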
